A study of Mus musculus with 8 samples.

Results

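The Notch pathway was followed through 10 genes in RNA of sorted mouse Paneth cells: the receptors Notch1, Notch2 and Notch3, the ligand Jag1, the glycosyltransferase Lfng, the DNA-binding factor Rbpj, the transcriptional repressors Hes1, Hes6 and Hey1, and the feedback inhibitor Nrarp. The genes were chosen by symbol, and all 10 were found among the 53801 gene rows of the count table. Notch is a receptor that is cut when it binds a ligand on a neighbouring cell; its released inner part joins Rbpj in the nucleus and switches on genes of the Hes and Hey families. In intestinal crypts Notch keeps progenitors undifferentiated and directs them to the absorptive fate, because Hes1 represses Atoh1, the factor required for all secretory cells. Paneth cells are secretory cells of the crypt base that present Notch ligands to the neighbouring stem cells.

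Viable EpCAM+ Cd24+ cells were sorted from 4 β-cateninGOF; Mll1+/- mice (controls 1 to 4) and 4 β-cateninGOF; Mll1-/- mice (knockouts 1 to 4), 10 d after tamoxifen, which was given as 1 mg on each of 3 days to mice of 4 to 6 wk. Both groups therefore carried a stabilized β-catenin, and the controls had lost 1 copy of Mll1 and were not wild type. Recombination was driven by a tamoxifen-inducible Cre under the Lgr5 promoter, which is active in crypt stem cells and gives a mosaic of recombined and unrecombined crypts. The methods describe the mice as littermates without naming litters. A single mouse number stands in the titles of both control 4 and knockout 4, so it is not certain from the labels that the 8 libraries came from 8 mice. The figure legends of the study state 4 independent mice per genotype. The methods paragraph on the sorting names the same Cre and Mll1 alleles but not β-cateninGOF, whereas the sample labels name it. The comparison asks what the loss of Mll1, a histone methyltransferase, does to gene expression in Paneth cells under high Wnt signalling.

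Between 13037832 and 14380240 reads were counted on genes per library. Levels are given as normalized CPM, that is counts scaled to a common library size (CPM) with edgeR's TMM factors, and 3 counts correspond to between 0.173 and 0.353 normalized CPM. The targeted gene Kmt2a, which encodes Mll1, was at 32.3 ± 10.9 normalized CPM in controls and 31.0 ± 5.55 in knockouts (SD, n = 4 per genotype). Because all exons are summed, this value says nothing about the loss of a single exon. Lyz1, the lysozyme of Paneth cell granules, had between 256862 and 713130 counts in every library. The markers of stromal and mural cells were near the limit of detection, with a summed level of 1.58 to 2.47 normalized CPM in the controls and 1.18 to 1.89 in the knockouts for 12 genes, of which Col3a1, Myh11, Cspg4 and Des had at most 3 counts in any library. Goblet markers summed to 10300 to 20000 normalized CPM in controls and 8820 to 22500 in knockouts, tuft markers to 203 to 469 and 90 to 303, and immune markers to 5.94 to 15 and 2.83 to 15.3. Knockout 3 stood apart, with counts on 19662 genes against 22623 to 26074 in the other libraries and 2.04% mitochondrial counts against 3.26% to 8.78%, and it had the highest summed Paneth (791000) and goblet (22500) markers of the 8 libraries, so values that moved by over 1.5 times without it are also given without it for the members and pathway lists. In RNA from sorted pools, fewer cells of a type and less RNA per cell cannot be told apart.

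Hes1 was the most abundant member and the member with the lowest unadjusted p. It was higher in knockouts 1, 2 and 4 than in every control and lower in knockout 3 than in every control. Lfng was lower in all 4 knockouts than in any control, and Jag1 was 1.91-fold higher on average with overlapping groups. The receptors and Rbpj were low and their groups overlapped, and Hes6 differed by little. With edgeR's quasi-likelihood test, 0 of the 7 members that could be tested passed an adjusted p of 0.05 together with a log2 fold change of 0.5 in size, where 25 of 13439 genes, or 0.186%, did. With DESeq2's Wald test 0 of the 7 passed as well, where 1.03% of genes did, and 0 of the 7 had an adjusted p of at most 0.1 in edgeR, where 0.283% of genes did. At an unadjusted p under 0.05 in edgeR, Hes1 was higher and Lfng lower, 1 member in each direction, against 4.35% and 2.53% of all tested genes. The median log2 fold change of the 7 was 0.03 and that of all tested genes 0.01. Without knockout 3 these medians were 0.29 and -0.01.

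**Figure D1:**
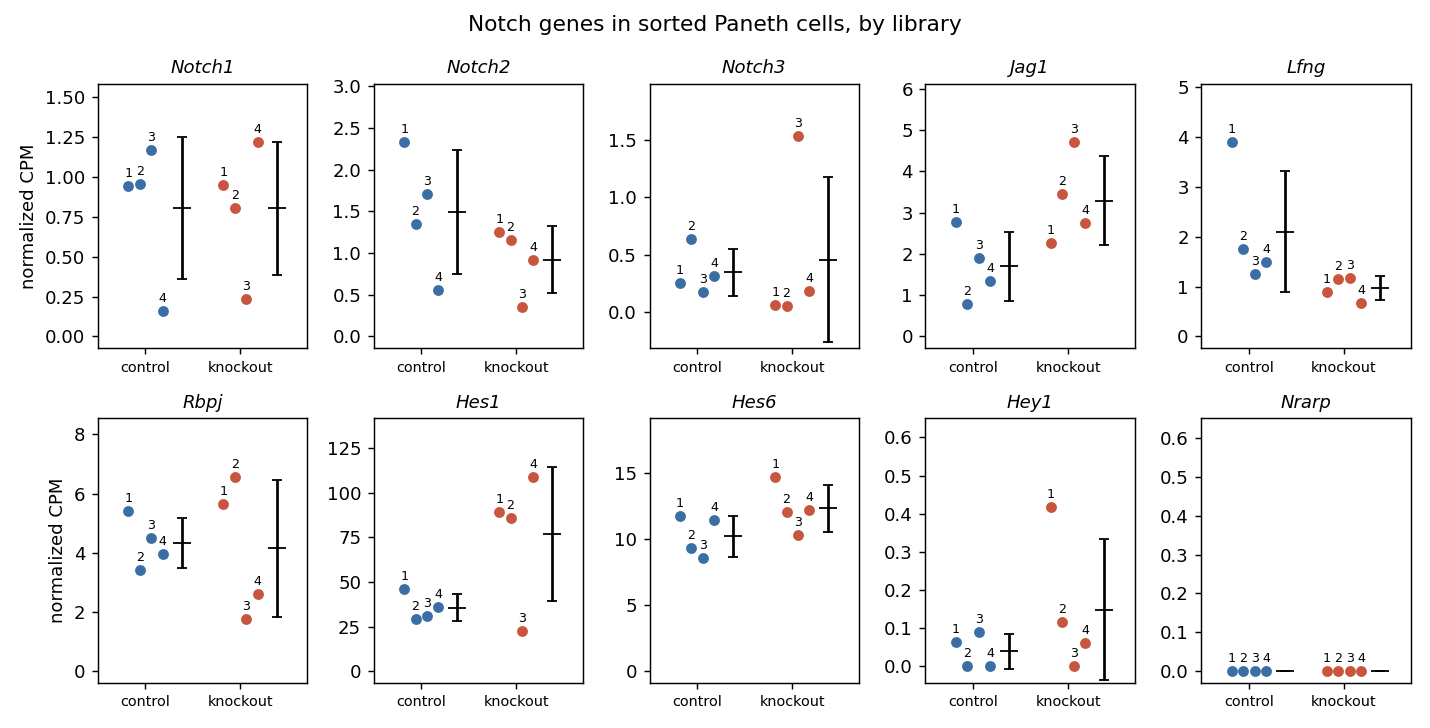
Normalized CPM (vertical axes, a separate linear scale for each gene) of the 10 members in the 4 controls (blue) and 4 knockouts (red), with the replicate number above each point and the mean ± SD beside each group. Knockouts 1, 2 and 4 lie above all controls for Hes1 and knockout 3 lies below them, the groups do not overlap for Lfng, and Nrarp is at 0 in every library.

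Levels can be compared between genes only per length, so the order of the members is given in normalized RPKM, that is normalized CPM per kilobase of all annotated exons. In the controls Hes1 stood at 17.5 ± 3.77 normalized RPKM (SD, n = 4) and Hes6 at 5.66 ± 0.855. Lfng followed at 0.84 ± 0.484, Rbpj at 0.339 ± 0.0664 and Jag1 at 0.292 ± 0.144. The receptors were lower, Notch2 at 0.138 ± 0.0686, Notch1 at 0.0567 ± 0.0312 and Notch3 at 0.043 ± 0.0251, and Hey1 was at 0.0117 ± 0.0139. The ranges of the 4 controls did not overlap between Hes1 and Hes6, between Hes6 and Lfng, or between Lfng and Rbpj. Rbpj and Jag1, Jag1 and Notch2, Notch2 and Notch1, and Notch1 and Notch3 overlapped, so their order is not resolved. In the knockouts Hes1 stood at 37.7 ± 18.4, Hes6 at 6.8 ± 1.0, Jag1 at 0.565 ± 0.183 and Lfng at 0.389 ± 0.0958, with overlapping ranges for Jag1 and Lfng. The length of Rbpj, 12750 bases, includes the exons of all its transcripts, which lowers its value per kilobase if only short transcripts are made.

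**Figure D2:**
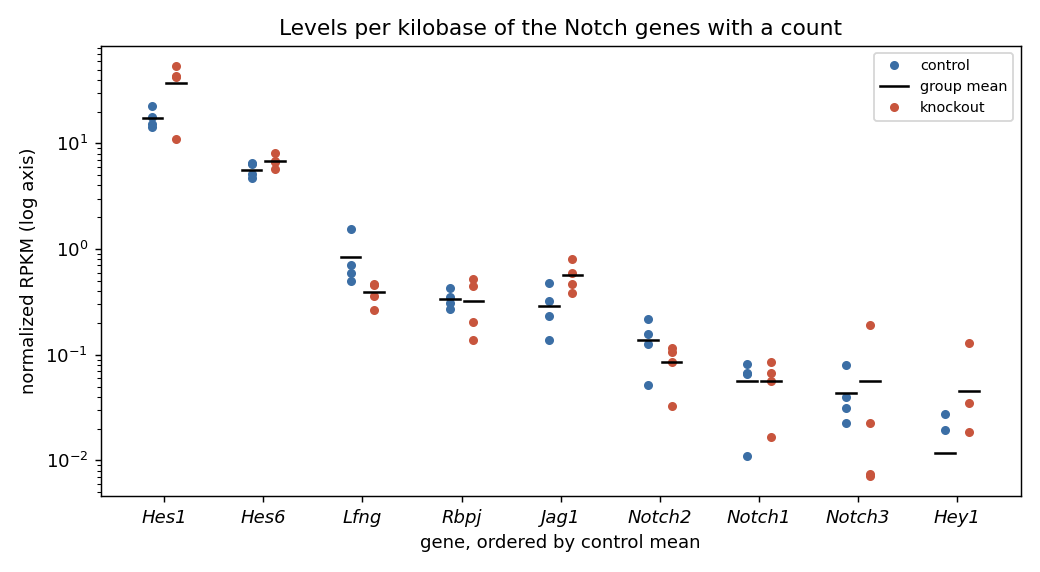
Normalized RPKM (vertical log axis) of the 9 members with a count, ordered by the control mean; points are libraries (blue controls, red knockouts), black bars are group means, and libraries at 0 are not drawn. Hes1 and Hes6 lie above the other members in both groups, and the receptors Notch1, Notch2 and Notch3 lie near the lower end.

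Notch1 (ENSMUSG00000026923, chromosome 2 from 26457903 to 26516663, mm10), a main receptor of the crypt together with Notch2, received 15, 12, 13 and 2 counts in controls 1 to 4. In knockouts 1 to 4 it received 16, 14, 2 and 20 counts. Each group held a library with only 2 counts, and the groups overlapped along their whole range. The estimate was 0.03 on the log2 scale (standard error 0.63, adjusted p = 0.997, edgeR), and its sign turned without control 4 (-0.31), without knockout 1 (-0.04) and without knockout 4 (-0.22), while it was 0.29 without knockout 3 and 0.54 with limma-voom and quality weights.

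Notch2 (ENSMUSG00000027878, chromosome 3 from 98013527 to 98150361) had 2.33, 1.35, 1.71 and 0.554 normalized CPM in controls 1 to 4. It had 1.25, 1.15, 0.353 and 0.913 in knockouts 1 to 4. Most controls lay above most knockouts, but the lowest control lay inside the range of the knockouts. On the log2 scale the difference was -0.66 (standard error 0.55, adjusted p = 0.916, edgeR), and it was -0.35 without control 1, -0.43 without knockout 3, where the gene had 3 counts, and -0.17 with limma-voom and quality weights.

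Notch3 (ENSMUSG00000038146, chromosome 17 from 32120820 to 32166880), a receptor best known from smooth muscle and pericytes of vessels, was too low to be tested. It received 4, 8, 2 and 4 counts in the controls and 1, 1, 13 and 3 counts in knockouts 1 to 4. Knockout 3, at 1.53 normalized CPM, was the only library above 0.637. The 12 stromal and mural markers together were at 1.18 normalized CPM in knockout 3, the lowest of the 8 libraries, but this sum was near the limit of detection in every library. The source of the Notch3 reads was not tested. Of the exon bases of the receptors, 7.5% in Notch1, 5.0% in Notch2 and 6.0% in Notch3 are shared with another gene.

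Jag1 (ENSMUSG00000027276, chromosome 2 from 137081456 to 137116644), a membrane-bound Notch ligand, had 2.77, 0.796, 1.89 and 1.35 normalized CPM in controls 1 to 4. It had 2.26, 3.46, 4.71 and 2.74 in knockouts 1 to 4. Control 1 lay inside the range of the knockouts, and the other 3 controls lay below all of them. The fitted log2 difference was 0.93 (standard error 0.44, unadjusted p = 0.058, adjusted p = 0.751, edgeR), and the exact permutation test gave p = 0.0857 (two-sided, 70 assignments, smallest possible p 0.0286). The estimate stayed above 0 in each fit that left out a library, from 0.7 without control 2 to 1.29 without control 1.

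Lfng (ENSMUSG00000029570, chromosome 5 from 140607320 to 140615545), the enzyme Lunatic fringe, adds sugar to the Notch receptor and so tunes which ligands it answers. It had 3.9, 1.75, 1.26 and 1.5 normalized CPM in controls 1 to 4, from 62, 22, 14 and 19 counts. In knockouts 1 to 4 it had 0.894, 1.15, 1.18 and 0.669, from 15, 20, 10 and 11 counts. Every knockout lay below every control, with a narrow gap between knockout 3 and control 3. Such a lack of overlap in this direction was met in 1.93% of all tested genes. The fitted difference was -1.13 on the log2 scale (standard error 0.49, unadjusted p = 0.0402, adjusted p = 0.68, edgeR), and the exact permutation test gave p = 0.0286, the smallest that 4 against 4 allow. Control 1 carried part of the difference, since the difference was -0.63 without it. Within the libraries whose label numbers form the first run it was -1.47, and within those of the second run -0.59.

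The region before the start of Lfng is shown because Lfng was the only member whose groups did not overlap and its window held letters of both motifs searched. Windows of 250 bases before the annotated start were taken from RefSeq (GRCm38.p6) for 8 of the 10 members, 10 windows in all; none was used for Hes1 and Hey1. They were searched on both strands for the core of the Rbpj site, TGGGAA, its longer form GTGGGAA, which contains the core, and the E-box CACGTG, whose class is bound by many basic helix-loop-helix factors. Capitals mark the matches in the stretch from base -150 to -81 relative to the RefSeq start of Lfng, which differs from the start in the count annotation given above, chr5:140607191-140607260 on the plus strand, and in a stretch before a start of Rbpj, chr5:53590191-53590213 on the plus strand.
Lfng: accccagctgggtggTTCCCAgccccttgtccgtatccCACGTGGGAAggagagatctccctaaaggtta
Rbpj: aaaggcTGGGAAcccgcggcgag
In Lfng the E-box and the longer Rbpj form overlap, and a further core lies on the minus strand upstream of them. The longer form was found in 5.42% of all 32851 promoter windows of this length and the E-box in 6.02%. The core alone is common, at 21.6% of windows, and it was found in both windows of Rbpj, which overlap and share 1 of the 2 sites. Nrarp held the E-box without the core. The windows of Notch1, Notch2, Notch3, Jag1 and Hes6 held none of these letters. A match describes the letters of the window and is no evidence of binding.

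Rbpj (ENSMUSG00000039191, chromosome 5 from 53466152 to 53657362), through which all Notch receptors act on DNA, had 5.41, 3.42, 4.5 and 3.96 normalized CPM in controls 1 to 4. It had 5.66, 6.57, 1.77 and 2.62 in knockouts 1 to 4. The knockouts fell on both sides of the controls, knockouts 1 and 2 above all of them and knockouts 3 and 4 below. The estimate was -0.04 on the log2 scale (standard error 0.41, adjusted p = 0.997, edgeR), and 0.19 without knockout 3. The libraries of the first run of label numbers gave 0.46 and those of the second run -0.92, so the direction differed between the runs, which was not tested.

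Hes1 (ENSMUSG00000022528, chromosome 16 from 30064384 to 30067796), the repressor through which Notch acts in the crypt, had 46.3, 29.0, 31.1 and 35.8 normalized CPM in controls 1 to 4. It had 89.0, 86.0, 22.6 and 109 in knockouts 1 to 4, from 1494, 1493, 192 and 1796 counts. Knockouts 1, 2 and 4 were each well above the highest control, and knockout 3 was below the lowest. This arrangement, with 3 knockouts above and knockout 3 below every control, was singled out after the values were seen, and 279 of the 13439 tested genes, or 2.08%, had it. Control libraries averaged 35.6 ± 7.67 and knockout libraries 76.7 ± 37.5 (SD, n = 4 per genotype), with a log2 fold change fitted at 1.11 (standard error 0.38, unadjusted p = 0.0124, adjusted p = 0.502, edgeR). The exact permutation test gave p = 0.143.

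Without knockout 3 the remaining 3 knockouts stood at 94.8 ± 12.7 normalized CPM. The fitted log2 difference was then 1.41 (standard error 0.18, adjusted p = 0.00238, edgeR), and Hes1 was the 1 member past both limits, where 152 of 14086 genes, or 1.08%, passed. With limma-voom and a quality weight for each library the adjusted p was 0.0322, with a log2 fold change of 1.32. The first run of label numbers, 2 libraries against 2, also lacks knockout 3, so its result is no separate support. Within this run the log2 difference was 1.21 (standard error 0.23, adjusted p = 0.0412, edgeR), past both limits, which 1.04% of genes were in that run. Within the second it was 1.0 (standard error 0.65, adjusted p = 0.999, edgeR), and there knockout 4 was above both controls and knockout 3 below both. With a covariate for Y-linked reads the log2 fold change was 1.21 (adjusted p = 0.705, edgeR).

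Markers of dividing cells were also higher in knockouts 1, 2 and 4 when summed. All 10 proliferation markers of the list had a higher fitted level in knockouts, against 50.9% of all tested genes, and their median was 0.6 on the log2 scale. Of the 10, 3 were higher at an unadjusted p under 0.05, against 4.35% of all tested genes, and 0 passed both limits. Their summed level was 93.4 to 196 normalized CPM in the controls, 205, 279 and 222 in knockouts 1, 2 and 4, and 131 in knockout 3. In the sum the same 3 knockouts thus lay above all controls, while knockout 3, the lowest library for Hes1, lay within them. This did not hold for Mki67, the first marker listed, for which control 1 (42.0) lay above knockouts 1 (26.5) and 4 (31.5). Of the 10 markers, 2 were higher without overlap of the groups, against 2.59% of all tested genes. None of the 10 was at or near 0. Of the stem cell markers, Lgr5 had 43.0 to 51.0 normalized CPM in controls and 37.3 to 55.6 in knockouts (adjusted p = 0.994, edgeR). The 8 together, with Olfm4 (449 to 1120 in controls and 103 to 688 in knockouts) included, summed to 760 to 1570 in the controls and to 677, 780 and 1020 in knockouts 1, 2 and 4, with 314 in knockout 3. Of these 8, 3 were lower at an unadjusted p under 0.05, against 2.53% of all tested genes, and 1 was higher, against 4.35%. The higher one, Tnfrsf19, a receptor gene named here after its values were seen, was the only stem marker past both limits without knockout 3 (log2 fold change 1.61, standard error 0.2, adjusted p = 0.00187, edgeR), where 1.08% of genes passed. The 10 enterocyte markers summed to 110 to 298 in the controls and 32.4 to 222 in the knockouts, and 3 of the 7 tested were lower at an unadjusted p under 0.05, against 2.53% of all tested genes. Paneth markers summed to 286000, 266000 and 347000 in knockouts 1, 2 and 4 and to 791000 in knockout 3, against 281000 to 563000 in the controls. The part of other cell types and of dividing cells in the level of Hes1 was not tested.

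Hes6 (ENSMUSG00000067071, chromosome 1 from 91411483 to 91414038), a relative that opposes Hes1 in other tissues, had 11.7, 9.31, 8.55 and 11.4 normalized CPM in controls 1 to 4. It had 14.7, 12.0, 10.3 and 12.2 in knockouts 1 to 4. Knockouts 1, 2 and 4 lay above all controls, by little, and knockout 3 lay among them. The fitted log2 difference was 0.26 (standard error 0.21, adjusted p = 0.914, edgeR), and the exact permutation test gave p = 0.143. Hes6 was the member with the smallest standard error, so its difference was the most precisely measured of the 7.

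Hey1 (ENSMUSG00000040289, chromosome 3 from 8663359 to 8667256), a repressor best known as a Notch target in vessels, received 1, 0, 1 and 0 counts in the controls and 7, 2, 0 and 1 in knockouts 1 to 4. Knockout 1 was the only library above 3 counts, so no fold change is given. Of the 9 endothelial markers Kdr, Tie1, Emcn and Cldn5 had at most 3 counts in any library, while Pecam1 had 3.25 to 6.36 normalized CPM. The list summed to 9.31 to 10.4 in controls and 6.6 to 9.06 in knockouts.

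Nrarp (ENSMUSG00000078202, chromosome 2 from 25180758 to 25183339), a Notch target that promotes turnover of the cut receptor, had 0 counts in all 8 libraries, which allows at most 0.173 to 0.353 normalized CPM per library. Of its exon bases 79.4% also belong to Gm38287 on the other strand, which had 0 counts too. A read in the shared part cannot be given to either gene if strand was not used in the counting, and the strand setting is not given in the sources used here. In that case the zero bears only on the remaining 20.6% of its exon bases, and the expression of Nrarp is not settled by these counts.

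**Figure D3:**
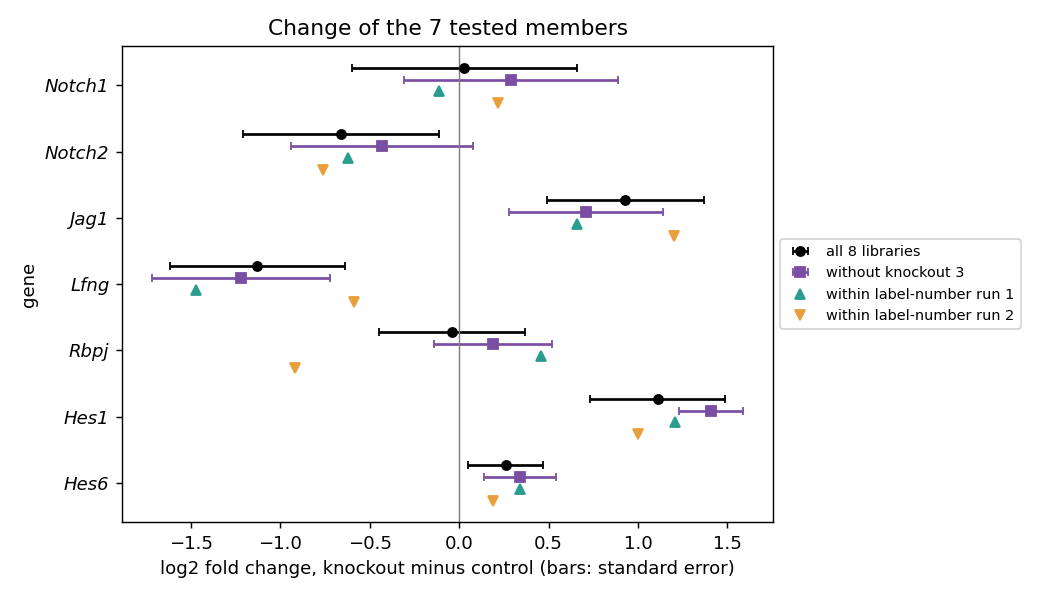
Log2 fold change, knockout minus control (horizontal axis), of the 7 tested members from all 8 libraries and without knockout 3 (bars are standard errors) and within each run of label numbers (2 against 2, no error drawn). Hes1 and Jag1 lie to the right and Lfng to the left in all 4 fits, while Notch1 and Rbpj change side.

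The other genes of the pathway were read from lists of fixed roles, 85 genes in all with the members, of which 66 were tested. None of the 66 passed both limits in edgeR, 34 were higher and 32 lower, and the median log2 fold change was 0.02, or -0.06 without knockout 3. At an unadjusted p under 0.05 there were 3 higher (Hes1, Adam10 and Dtx2) and 2 lower (Lfng and Neurog3), and groups did not overlap for Dtx2, Lfng and Neurog3. Over all tested genes, an unadjusted p under 0.05 was met by 6.88% and a lack of overlap by 4.52%, so both counts lay near the background.

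**Figure D4:**
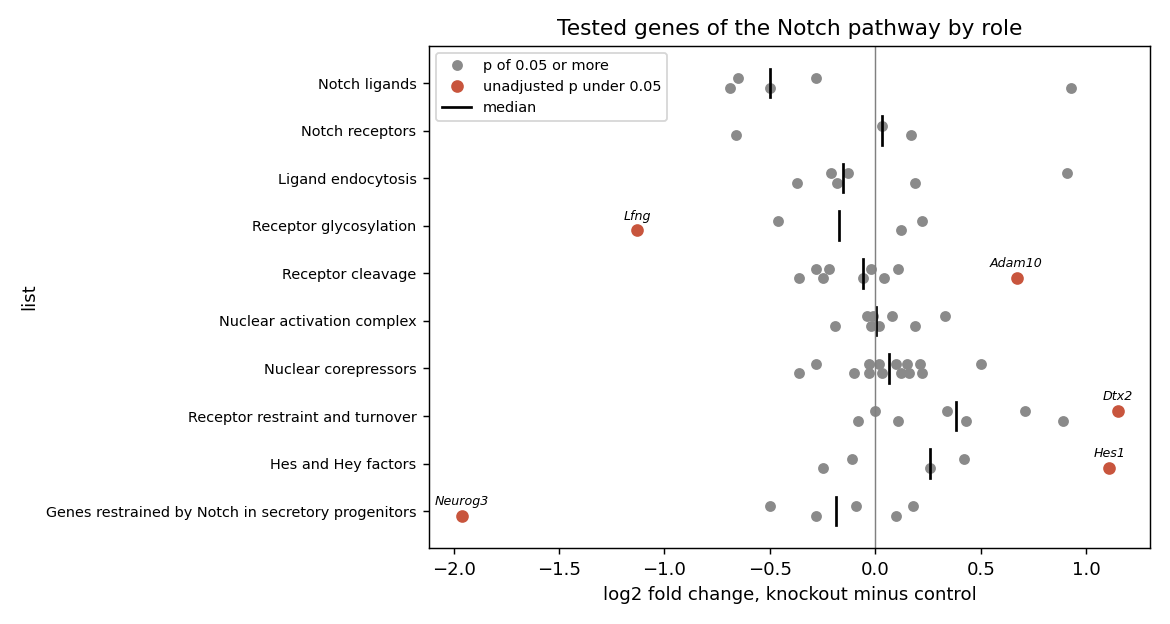
Log2 fold change, knockout minus control (horizontal axis), of each tested pathway gene in its list (rows), with the list median as a black bar; a gene in 2 lists is drawn in both. The medians lie between -0.5 for the ligands and 0.38 for receptor restraint and turnover, and the 5 named genes in red are those with an unadjusted p under 0.05.

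Of the 7 ligands 5 were tested, of which only Jag1 had a higher fitted level in knockouts, and their median on the log2 scale was -0.5 with none past both limits. Dll1 and Dll4, the ligands that Paneth and other secretory cells present to stem cells, were the most abundant ligands per length, at 1.42 ± 0.519 and 1.45 ± 0.473 normalized RPKM (SD, n = 8). Dll1 had 8.24, 3.82, 8.46 and 7.52 normalized CPM in controls 1 to 4 and 3.52, 6.22, 7.07 and 3.16 in knockouts 1 to 4. The groups overlapped, with a fitted log2 difference of -0.5 (standard error 0.36, adjusted p = 0.89, edgeR), and 20.5% of its exon bases belong to an antisense gene. Dll4 had 2.83 to 8.1 normalized CPM in the controls and 3.87 to 6.6 in the knockouts (log2 fold change -0.28, standard error 0.35, adjusted p = 0.96, edgeR). The Dll4 estimate was -0.43 without knockout 3, -0.52 without control 1 and -0.12 without control 3.

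Of the receptors, Notch4 was the most abundant per length, at 0.164 ± 0.1 normalized RPKM over the 8 libraries against 0.111 for Notch2, a difference within the spread between libraries. Among 10 genes for the cutting of the receptor, 9 were tested, 3 higher and 6 lower, and their median was -0.06 on the log2 scale, or -0.12 without knockout 3. Adam10, the protease that makes the first cut after ligand binding, was the most abundant of them. It had 23.5, 17.3, 25.8 and 16.9 normalized CPM in controls 1 to 4 and 41.6, 44.9, 16.8 and 29.2 in knockouts 1 to 4. As for Hes1, knockouts 1, 2 and 4 lay above all controls, but knockout 3 was nearly level with the lowest control, control 4. Its log2 fold change was 0.67 (standard error 0.29, adjusted p = 0.671, edgeR), and without knockout 3 it was 0.88 (standard error 0.21, adjusted p = 0.0736). Within the first run of label numbers it was 1.08 (adjusted p = 0.0475, edgeR), past both limits, and within the second 0.13 (adjusted p = 0.999).

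In the list for receptor restraint and turnover 8 of 12 genes were tested, 6 higher and 2 lower, and the median log2 fold change was 0.38, or 0.22 without knockout 3. Dtx2, a Deltex ubiquitin ligase that binds the inner part of Notch, had 1.13, 0.716, 0.99 and 0.713 normalized CPM in controls 1 to 4 and 1.79, 1.27, 2.36 and 2.56 in knockouts 1 to 4. Every knockout lay above every control, which 2.59% of all tested genes met in this direction. The fitted log2 difference was 1.15 (standard error 0.44, adjusted p = 0.595, edgeR), and the exact permutation test gave p = 0.0286. The ubiquitin ligase Itch and the endocytic adaptor Numb were the most abundant of this list, at 2.87 ± 0.865 and 1.79 ± 0.738 normalized RPKM.

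The remaining lists had 0 genes past both limits. The 5 genes for receptor glycosylation, in which Rfng at 1.34 ± 0.359 and Poglut1 at 1.13 ± 0.378 normalized RPKM were the most abundant, had a median log2 fold change of -0.17 over 4 tested genes. The 6 tested genes for ligand endocytosis, led by Neurl3 at 5.03 ± 1.44 and Epn1 at 4.4 ± 0.891, had a median of -0.15. The 8 tested genes of the nuclear activation complex, led by the acetyltransferases Kat2b at 2.36 ± 0.469 and Crebbp at 2.3 ± 0.295, had a median of 0.0, or -0.05 without knockout 3. The 14 tested corepressors, led by Ctbp1 at 7.68 ± 1.34 and Ncor1 at 5.98 ± 0.866, had a median of 0.06, or 0.03 without it. Of the 12 Hes, Hey and related factors only 5 were tested, with a median of 0.26, or 0.34 without knockout 3, where Hes1 was called. Hes1 and Hes6 were the most abundant per length, while Hes5, a Notch target in other tissues, had at most 1 count in a library.

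Genes known to lie downstream of Notch in the crypt differed in sign, and none of those named here passed both limits. Olfm4, a stem cell gene that Notch switches on, had 1120, 864, 449 and 1070 normalized CPM in controls 1 to 4 and 375, 458, 103 and 688 in knockouts 1 to 4. The groups overlapped through control 3, and the log2 fold change was -1.11 (standard error 0.47, unadjusted p = 0.0371, adjusted p = 0.671, edgeR), opposite in sign to that of Hes1. Atoh1, which Hes1 represses, had 35.4, 27.1, 45.3 and 46.6 normalized CPM in controls 1 to 4 and 27.6, 38.4, 74.3 and 34.6 in knockouts 1 to 4. Its log2 fold change was 0.18 (standard error 0.3, adjusted p = 0.974, edgeR) and turned to -0.21 without knockout 3, the library with the highest Atoh1 and the lowest Hes1. Knockouts 1, 2 and 4, which were above all controls for Hes1, lay inside the range of the controls for Atoh1. A relation between the levels of these genes was not tested.

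Neurog3, the factor that starts the enteroendocrine lineage and is held down by Notch, had 1.26, 1.27, 2.43 and 3.72 normalized CPM in controls 1 to 4 and 0.715, 0.346, 0 and 1.03 in knockouts 1 to 4. Every knockout lay below every control, which 1.93% of all tested genes met in this direction. On the log2 scale the difference was -1.96 (standard error 0.72, unadjusted p = 0.0187, adjusted p = 0.577, edgeR), the exact permutation test gave p = 0.0286, and 16.3% of its exon bases are shared with an antisense gene. Enteroendocrine markers had the same sign: all 10 had a lower fitted level in knockouts, against 6595 of all 13439 tested genes, and their median on the log2 scale was -1.4. Of the 10, 5 were lower at an unadjusted p under 0.05, against 2.53% of all tested genes, and 0 passed both limits. Their summed level was 618 to 1920 normalized CPM in the controls and 517, 56.4 and 410 in knockouts 1, 2 and 4, but 2700 in knockout 3, and none of the 10 was at or near 0 throughout. Their part in the level of Neurog3 was not tested. The list of 6 genes restrained by Notch in secretory progenitors, with Atoh1 at 19.4 ± 7.16 and Spdef at 8.97 ± 4.02 normalized RPKM as the most abundant, had a median log2 fold change of -0.19, or -0.4 without knockout 3.

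**Figure D5:**
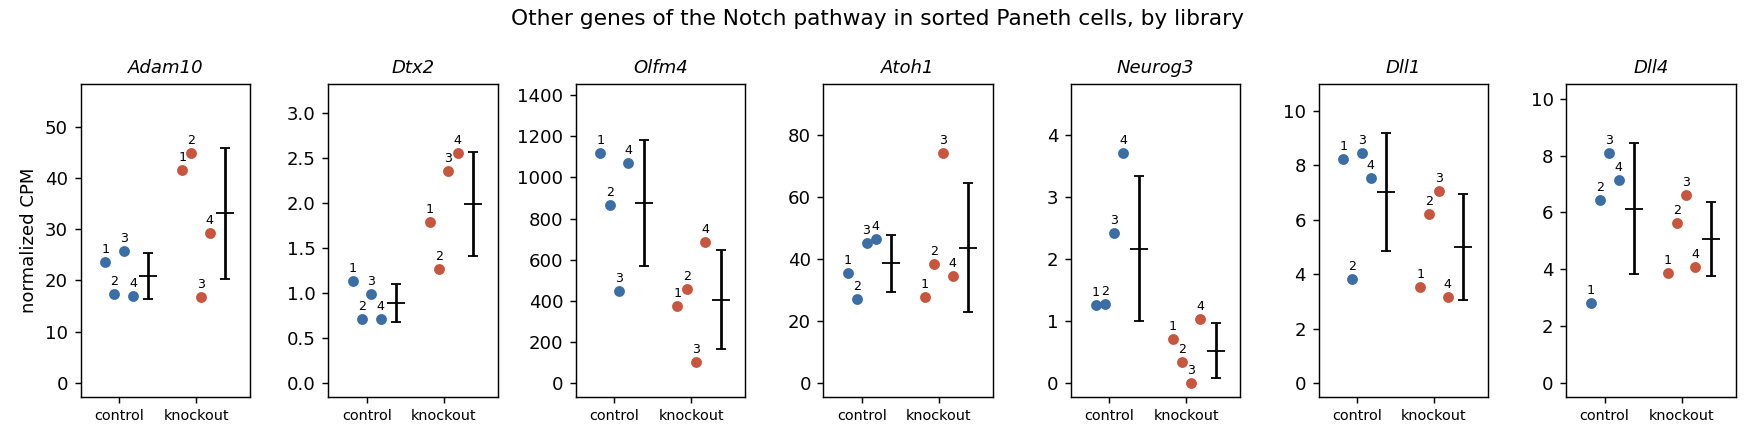
Normalized CPM (vertical axes, a separate linear scale for each gene) of 7 further pathway genes in the 4 controls (blue) and 4 knockouts (red), with replicate numbers and mean ± SD. Knockout 3 is the lowest knockout for Adam10 and Olfm4 and the highest for Atoh1, and the groups do not overlap for Dtx2 and Neurog3.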

How the data were processed

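Reads of the 8 libraries, made from sorted cells with a Smart-seq2 protocol that amplifies polyadenylated RNA by PCR, were aligned by the authors to mm10 with GSNAP and counted per gene on the Ensembl annotation with featureCounts 1.6.3. The deposited values are raw counts of uniquely mapped reads, without normalization or molecular identifiers, so limits cover counting error only. The strand setting is not given in the sources used here.

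Genotypes were taken from the sample labels, and replicate numbers are names that pair no samples. A single mouse number in 2 titles, of control 4 and of knockout 4, could not be resolved. The label numbers form 2 runs, with controls 1 and 2 and knockouts 1 and 2 in the first; what the runs stand for is not given. The 92 spike-in rows, with at most 11 counts in a library, were left out. Symbols were matched by identifier for 53620 of 53801 genes, and Kmt2a, the members and the lists were found by symbol. The spans of 97.1% of genes equal those of GENCODE M21, from which exon overlaps were taken. No library pair agreed within sampling noise (smallest chi-square per degree of freedom 12.13).

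In R 4.3.3, edgeR 4.0.16 fitted TMM-scaled counts of the 13439 genes that passed filterByExpr (minimum count 10, minimum total 15) with robust quasi-likelihood, and p-values were adjusted over all of them by Benjamini-Hochberg. Calls required an adjusted p no higher than 0.05 together with a log2 difference of 0.5 or more in either direction. Standard errors were taken as the fold change divided by the square root of F. Exact permutation tests used log2(normalized CPM + 1). DESeq2 1.42.0, limma 3.58.1, other scalings and filters, a block for the label-number run, a Y-linked covariate, an adjusted p of 0.1 and each library left out were alternatives. The functions were tested on simulated data.

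Named are the 10 members, pathway genes that were called, had an unadjusted p of at most 0.05 or did not overlap between groups, the 2 most abundant genes per length of each list, Olfm4, Atoh1, Dll1, Dll4, Kmt2a and the first or the undetected markers of cell type lists, printed where they stand beside a result. The members and lists were chosen with earlier results of these data known. For 1 gene that this rule covers, values are not reported here.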

Additional observations from a re-analysis of the deposited data

Results flagged for a closer look

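Of 34 groups of 4 libraries examined for the named genes, 1 held a library far from the other 3, where chance alone gives about 1.7. Notch3 in knockout 3 was at 1.53 normalized CPM against 0.0576 to 0.183 in the other knockouts, a gap of 0.915 of the whole range, above the critical value of Dixon's test for groups of 4, and it rests on 13 counts.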

How the results depend on the processing

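No paired analysis was run. The genotypes share only 1 animal number, that of control 4 and knockout 4, and neither the labels nor the methods, which call the mice littermates, state any other pair. The label numbers follow each other in couples of a control and a knockout, but these are not said to be pairs. The number of members called was 0 with all 8 libraries and 0 in most alternatives. It was 1 (Hes1) without a filter on low counts, where the adjusted p of Hes1 fell to 0.000361, 1 with limma-voom and quality weights, and between 0 and 1 when libraries were left out; the cause was not tested. The log2 fold change of Hes1 lay between 0.89 and 1.41 in all 20 alternatives. The number of genes called, 25 of 13439, was 290 without a filter, 13 with at least 10 counts in every library, 138 with DESeq2, 95 with limma-voom, 10 with the Y-linked covariate and 38 at an adjusted p of 0.1 without a fold limit. Leaving out libraries gave 10 (without control 3) to 152 genes (without knockout 3).

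Of 296 values of single genes under the alternatives, 277 kept their direction. Notch1 turned to -0.00 with upper-quartile factors and with the Y-linked covariate and to -0.11 in the first run of label numbers, and ranged from -0.31 to 0.29 with libraries left out. Rbpj turned to 0.22 with limma-voom and 0.46 in the first run (range -0.35 to 0.19), Atoh1 to -0.19 with limma-voom (range -0.21 to 0.35) and Dll4 to 0.05 in the first run. Kmt2a turned to 0.04 with the Y-linked covariate and 0.54 in the second run (range -0.2 to 0.15), while it was -0.54 in the first run. For these 5 genes the difference over all 8 libraries was smaller than its standard error. Counts were 2 to 20 for Notch1 and 3 to 37 for Notch2, with standard errors of 0.63 and 0.55 on the log2 scale, and Notch3 and Hey1 were too low to be tested.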
